A study of Mus musculus with 10 samples.

Results

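The 7 immunoglobulin chain genes described here were Igkc, Ighm, Ighd, Iglc1, Iglc2, Iglc3 and Jchain. They were found by symbol, and all 7 were found among the 14623 genes of the count table. Igkc encodes the constant part of the kappa light chain, Ighm and Ighd the constant parts of the IgM and IgD heavy chains, Iglc1 to Iglc3 constant parts of the lambda light chain, and Jchain the small joining chain of polymeric IgM and IgA. The cells came from the stromal vascular fraction (SVF, the cells of a fat pad other than its adipocytes) of inguinal white adipose tissue (iWAT) of 1 lean Bbs8-/- mouse (KO) and 1 Bbs8+/+ mouse (WT), both 7 weeks old. Bbs8, listed in the table as Ttc8, encodes a subunit of the BBSome, a complex that carries membrane proteins in and out of the primary cilium, and the KO lacked it in all cells. RNA of single cells was captured in nanowells with Seq-Well S3, and molecules were counted by their unique molecular identifiers (UMIs). The labels gave 10 samples, 5 per genotype, and the table named 10 barcode sets, 5 per genotype, which were treated as technical parts of the 1 mouse per genotype because no source used here explains their codes. With 1 mouse per genotype no test between genotypes was possible. Intervals below are exact 95% intervals that cover counting error only, and ranges over barcode sets were read as technical spread. Whether the codes KO5, KO6, WT3 and WT4 mark arrays or animals is not given in the sources used here, and if they mark animals the ranges would hold spread between animals too.

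A B lymphocyte carries its antigen receptor as a membrane immunoglobulin, made of a pair of identical heavy chains and a pair of identical light chains, with Cd79a and Cd79b as the signalling partners. Naive mature B cells make IgM and IgD from the same rearranged heavy chain locus by alternative processing of a single long transcript, and most of them use either a kappa or a lambda light chain. Plasma cells secrete antibody, make far more immunoglobulin mRNA per cell, shut down IgD and express Jchain. Immunoglobulin mRNA is also among the transcripts that often leak from broken cells during tissue dissociation and are then counted in other cells.

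The light chain genes are shown because the results below depend on which of them reads can tell apart. The sequences are 300 coding bases of the constant exons, read from GENCODE transcripts on build GRCm38, which is the same build as the mm10 of the deposited data. Igkc lies at chr6:70726455-70726754 on the plus strand, and the lambda genes lie on the minus strand at chr16:19061755-19062054 (Iglc1), chr16:19198539-19198838 (Iglc2) and chr16:19065368-19065667 (Iglc3). Capitals in Iglc1 and Iglc3 mark bases that differ from Iglc2 in a pairwise alignment.
Igkc: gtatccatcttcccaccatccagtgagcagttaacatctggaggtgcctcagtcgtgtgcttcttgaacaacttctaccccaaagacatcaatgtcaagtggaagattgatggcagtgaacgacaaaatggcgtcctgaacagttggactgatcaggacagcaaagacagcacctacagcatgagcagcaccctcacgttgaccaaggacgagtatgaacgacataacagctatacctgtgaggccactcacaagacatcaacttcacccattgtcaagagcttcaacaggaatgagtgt
Iglc2: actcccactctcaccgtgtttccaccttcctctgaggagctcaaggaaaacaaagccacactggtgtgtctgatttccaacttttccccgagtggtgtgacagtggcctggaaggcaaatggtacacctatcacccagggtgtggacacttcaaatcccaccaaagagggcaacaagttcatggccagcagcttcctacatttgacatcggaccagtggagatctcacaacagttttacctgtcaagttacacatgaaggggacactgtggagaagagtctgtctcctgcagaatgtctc
Iglc3: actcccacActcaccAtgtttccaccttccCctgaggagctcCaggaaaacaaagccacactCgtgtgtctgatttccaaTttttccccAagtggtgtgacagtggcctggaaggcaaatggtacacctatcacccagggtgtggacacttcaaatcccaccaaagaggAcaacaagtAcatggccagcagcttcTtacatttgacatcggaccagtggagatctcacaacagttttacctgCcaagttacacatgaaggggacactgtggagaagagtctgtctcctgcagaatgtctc
Iglc1: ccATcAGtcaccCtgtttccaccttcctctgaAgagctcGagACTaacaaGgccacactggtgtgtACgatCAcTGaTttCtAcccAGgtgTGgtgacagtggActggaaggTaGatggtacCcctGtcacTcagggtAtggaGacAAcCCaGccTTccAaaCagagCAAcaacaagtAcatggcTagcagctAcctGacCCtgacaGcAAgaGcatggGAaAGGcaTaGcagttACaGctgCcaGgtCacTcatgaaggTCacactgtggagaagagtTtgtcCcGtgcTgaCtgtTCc
Iglc3 had 11 capitals and Iglc1 had 77. Iglc2 and Iglc3 were identical at 96.3% of aligned coding bases and at 90.2% of aligned bases of the 3′ untranslated region, and 23 of the 399 windows of 60 bases in Iglc2 occurred unchanged in Iglc3. Iglc1 was identical to Iglc2 at 73.1% of coding bases and 55.5% of untranslated bases and shared 0 such windows. A read inside a shared window could come from either Iglc2 or Iglc3, while the other windows of the pair differed by at least 1 base. How reads were assigned between the pair is not given in the sources used here, so their sum is given beside them. Ighm and Ighd lie next to each other on chromosome 12, at 113418558 to 113422730 and 113406604 to 113416324.

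The table held 8985 KO cells with 3144195 UMIs (median 251 per cell) and 1929 WT cells with 715989 UMIs (median 278), in sets of 1635 to 2005 KO cells and 196 to 768 WT cells. Ttc8 had 0 UMIs in KO, which allows up to 0.954 CPM (UMIs of a gene per 1000000 UMIs of the same cells), and 5 UMIs in WT (6.98 CPM), all in set WT4_p2. Of 10847 barcodes, 36 occurred in more than 1 set and belonged to 103 cells, 4 of them B cell-like. In set KO6_p1, 851 cells fell in a cluster of 863 cells whose best list was that of B cells, at a mean log2 fold of 0.56 and so below the level of 1 needed for a name. It was counted outside the B cell-like class, and the B cell-like share of that set was 6.98% against 12.4% to 13.5% in the other KO sets. Clusters were made without any of the 26 immunoglobulin rows, so the levels of the members did not help to form them. Of 18 clusters, 1 was B cell-like by a list of B cell markers, with Cd22, Ms4a1, Pax5 and Bank1 among its leading genes, and no cluster was plasma cell-like.

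B cell-like cells made up 11.6% of KO cells (1041 cells, 95% interval 10.9% to 12.3%) and 3.68% of WT cells (71 cells, 2.89% to 4.62%). The KO sets held 140 to 247 B cell-like cells each and the WT sets 4 to 35, so every WT value below rests on few cells. The shares depended on how cells were named, at 21.1% of KO with naming threshold 0.5, and at 1.66% of WT with marker UMIs alone and 1.88% with at least 200 genes per cell. All 10 genes of the B cell marker list were detected in B cell-like cells of both genotypes, with a summed level of 9623 CPM in KO (sets 8861 to 10241 CPM) and 6102 CPM in WT (sets 972 to 10813 CPM). Markers of other cell types were counted in both classes. The stromal list stood at 1336 CPM in KO (8 of 8 genes detected, sets 971 to 1793 CPM) and 2801 CPM in WT (7 of 8, sets 972 to 8371 CPM), and the macrophage list at 175 CPM (7 of 8, sets 128 to 205 CPM) and 900.3 CPM (6 of 8, sets 101 to 7775 CPM). The T cell list stood at 512 CPM (9 of 9) and 600.2 CPM (5 of 9), with overlapping intervals. Their part in the KO to WT ratios of B cell-like cells below was not tested. The median depth of B cell-like cells was 282 UMIs in KO and 252 in WT.

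In B cell-like cells Igkc, Ighm and Ighd were detected in both genotypes at 1250 CPM or more, the lambda genes at 450 CPM or less, and Jchain had no UMI. Values by set are given in the order KO5_p2, KO5_p3, KO6_p1, KO6_p2 and KO6_p3, then WT3_p1, WT3_p2, WT3_p3, WT4_p2 and WT4_p3. Igkc stood at 3884, 4145, 4887, 4487 and 4483 CPM in the KO sets and at 1336, 11683, 0, 2516 and 2442 CPM in the WT sets. The KO sets lay close together, and the WT sets spread both above and below them. The sums were 4369 CPM in KO (4162 to 4583, 1671 UMIs) and 3651 CPM in WT (2862 to 4591, 73 UMIs).

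Ighm, the IgM heavy chain gene, stood at 3130, 3083, 3401, 2807 and 3763 CPM in the KO sets and at 334, 10104, 972, 3724 and 2790 CPM in the WT sets. Again the WT values lay on both sides of the KO values, and set WT3_p2 was the highest for Igkc and for Ighm. The sums were 3210 CPM in KO (3033 to 3395) and 3951 CPM in WT (3128 to 4925). Ighd, the IgD heavy chain gene, stood at 2232, 2200, 2187, 2131 and 2286 CPM in the KO sets and at 668, 316, 0, 1812 and 1395 CPM in the WT sets. Here every KO set lay above every WT set, and the sums were 2204 CPM in KO (2058 to 2358) and 1250 CPM in WT (809 to 1846, 25 UMIs).

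Of the lambda genes, Iglc1 had 55 UMIs in KO B cell-like cells (144 CPM, sets 114 to 174) and 1 UMI in WT. Iglc2 had 163 UMIs in KO (426 CPM, sets 345 to 478) and 9 in WT (450 CPM). Iglc3 had 164 UMIs in KO (429 CPM, sets 358 to 609) and 2 in WT, both in set WT4_p2. Iglc2 and Iglc3 together reached 855 CPM in KO (765 to 953) and 550 CPM in WT (275 to 984), with the WT sets at 0 to 906 CPM overlapping the KO sets at 704 to 1087 CPM. Jchain had 0 UMIs in B cell-like cells of either genotype, which allows up to 7.84 CPM in KO and 150 CPM in WT. These levels are per UMI and not per length of transcript, so the order of levels between genes is not a comparison of them.

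**Figure D1:**
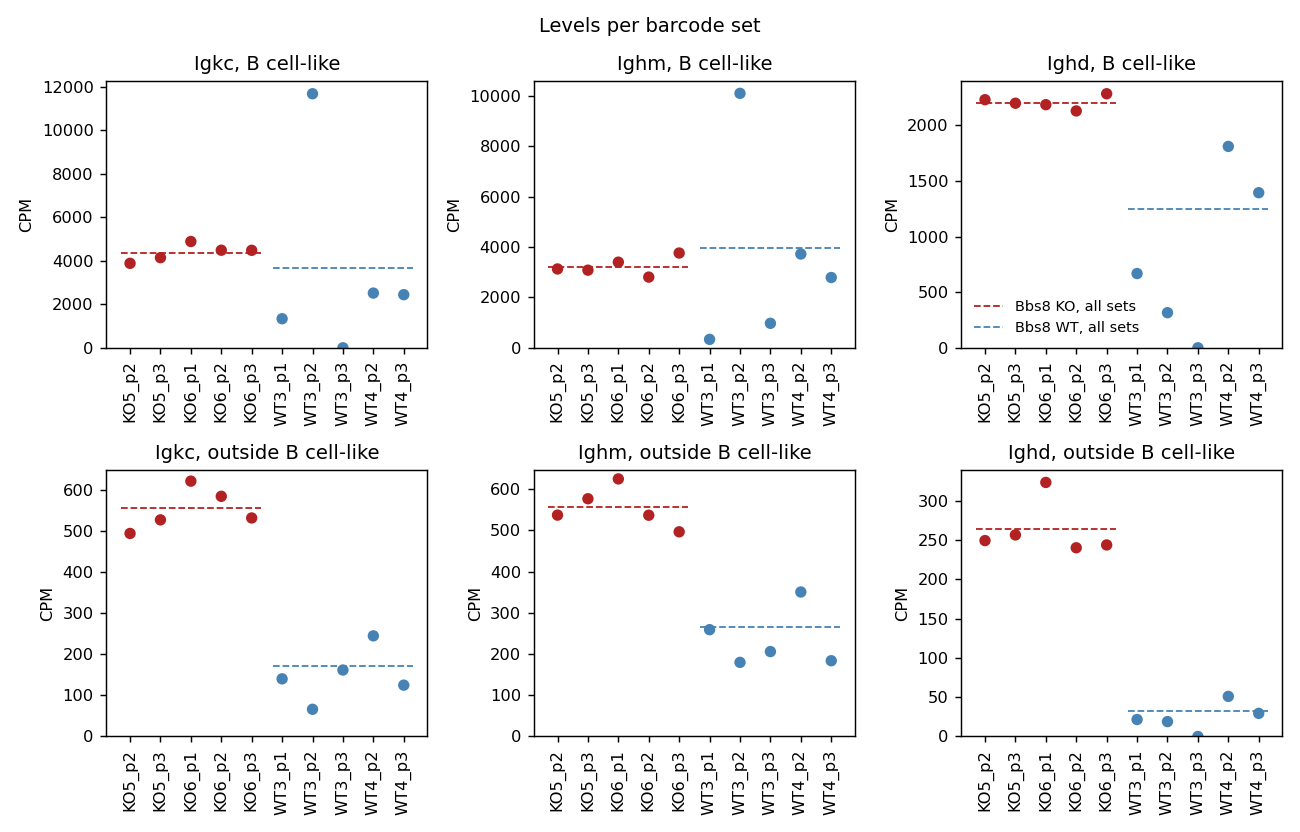
Level in CPM (linear axes from 0) of Igkc, Ighm and Ighd in B cell-like cells (top) and in all other cells (bottom), 1 point per barcode set, with dashed lines at the value of all sets of a genotype together. Ighd in B cell-like cells shows KO sets between 2131 and 2286 CPM above all WT sets, while Igkc and Ighm of set WT3_p2 stand at 11683 and 10104 CPM.

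For KO against WT in B cell-like cells, the log2 ratio with 5 CPM added was 0.26 for Igkc (interval of the plain ratio -0.08 to 0.62), -0.30 for Ighm (-0.63 to 0.05) and 0.82 for Ighd (0.25 to 1.45). The interval of Ighd left out 0 and those of Igkc and Ighm did not. Iglc1 stood at 1.44 (-1.01 to 6.85), Iglc2 at -0.08 (-1.04 to 1.08) and Iglc3 at 2.05 (0.22 to 5.16). Of the 6 members with at least 20 UMIs in these cells, 2 were at least 1 higher in KO on the log2 scale, Iglc1 and Iglc3, against 31.4% of the 3535 genes compared, and 0 were at least 1 lower, against 10.9%. The members' count was thus near the share of all genes. Iglc1 (55 UMIs in KO, 1 in WT) and Iglc3 (164 and 2) met the minimum of 20 UMIs through KO alone. The count therefore supports no difference of the members. With Iglc2 and Iglc3 summed the ratio was 0.63 (-0.22 to 1.65) and the sets overlapped, so the call of Iglc3 did not hold for the pair. All WT UMIs of Iglc1 (1) and Iglc3 (2) in these cells were in set WT4_p2. The call of Iglc1 was also lost with marker UMIs alone (0.79) and with at least 200 genes per cell (-0.27). Without set WT4_p2, Iglc2 turned to 1.08 (-0.78 to 4.16) and Igkc to -0.13 (-0.54 to 0.32). The median over members was 0.54 and over all genes 0.28. KO and WT sets did not overlap for 3 of the 6, Ighd, Iglc1 and Iglc3, against 23.3% of all genes, with as few as 4 cells in a WT set. Trimmed-mean (TMM) scaling added 0.54 to each of these ratios and DESeq2 size factors 0.50, which turned the direction of Ighm (0.24 and 0.20) and of Iglc2 (0.46 and 0.42).

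A single WT cell carried much of the WT signal. This cell of set WT3_p2 had 290 UMIs, of which 61 (21.03%) were immunoglobulin, 32 Igkc and 29 Ighm, with 0 Ighd. It held 2 UMIs of Xbp1, a transcription factor of plasma cells, 1 UMI of Mzb1, a chaperone of plasma and marginal zone B cells, and 0 UMIs of the B cell marker list. Without it the WT level of Igkc in B cell-like cells was 2081 CPM (1493 to 2823) and the log2 ratio of KO to WT 1.07 (0.62 to 1.55). Ighm without it was 2538 CPM, and its ratio turned from -0.30 to 0.34 (-0.07 to 0.78). Ighd, absent from that cell, stood at 0.79 (0.22 to 1.43), and at 1.66 without set WT4_p2, which held 35 of the 71 WT cells. The 7 members summed moved from 0.19 (-0.02 to 0.41) to 0.73 (0.48 to 1.00).

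The balance of IgD to IgM transcripts needs no scaling to library size. Ighd made up 40.7% of Ighd and Ighm UMIs in KO B cell-like cells (38.6% to 42.9%, sets 37.8% to 43.2%) and 24.04% in WT (16.2% to 33.4%, 104 UMIs). Without the WT cell above the WT share was 33.3% (22.9% to 45.2%), which overlapped the KO interval, and without set WT4_p2 it was 14.3%. Of the 1041 KO B cell-like cells, 597 had Ighm, 479 had Ighd and 303 had both. Ighd was found in 50.8% of cells with Ighm (46.7% to 54.8%, median depth 340 UMIs) and in 39.6% of cells without (35.1% to 44.4%, median depth 237 UMIs). In WT, 31 of 71 cells had Ighm, 21 had Ighd and 12 had both.

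Per cell, Igkc was found in 62.7% of KO B cell-like cells (653 of 1041, 59.7% to 65.7%) and 35.2% of WT (25 of 71, 24.2% to 47.5%). After each cell was thinned to 200 UMIs the shares were 53.7% in KO (231 shallower cells left out) and 31.25% in WT (23 left out). In KO, 22.96% of B cell-like cells had 3 or more Igkc UMIs and the highest had 16, against 8.45% in WT. T cell-like cells, which should lack a light chain, had Igkc in 8.02% of KO cells (78 of 972, median depth 284.5 UMIs) and 5.65% after thinning. The B cell-like share in KO was thus well above this background, and the WT share of 35.2% lay above the 3.60% (4 of 111 cells, median depth 234 UMIs) of WT T cell-like cells. Some other KO classes held Igkc in more of their cells. Igkc had no UMI in 92.0% of T cell-like cells, but in 88.4% of stromal-like, 87.1% of endothelial-like and 82.5% of macrophage-like cells. The figure for B cell-like cells was 37.3%.

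**Figure D2:**
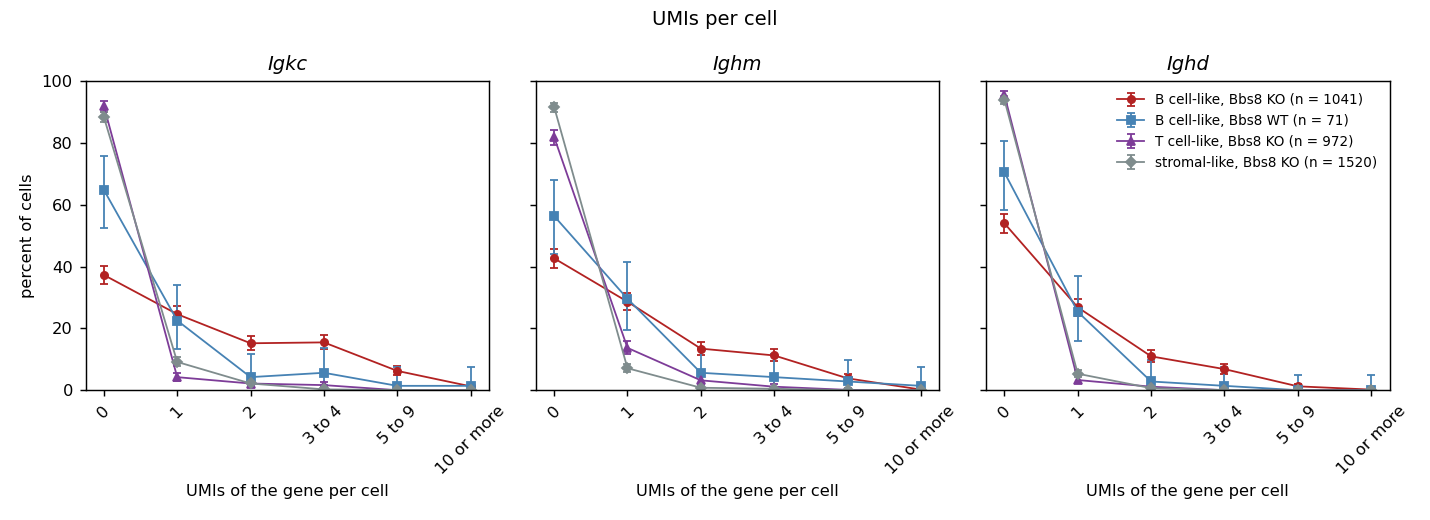
Percent of cells by the number of UMIs of Igkc, Ighm or Ighd in the cell, for B cell-like cells of both genotypes and for KO T cell-like and stromal-like cells, with exact binomial 95% intervals as bars. In KO B cell-like cells 37.3% had no Igkc UMI and 1.25% had 10 or more, while 92.0% of KO T cell-like cells had none.

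Any of the 7 members was found in 90.1% of KO B cell-like cells (938 of 1041) and 70.4% of WT (50 of 71). Outside the B cell-like class any member was found in 32.1% of KO cells (2549 of 7944) and 10.01% of WT cells (186 of 1858). B cell-like cells held 52.1% of all Igkc UMIs in KO, 44.4% of Ighm, 53.6% of Ighd, 34.6% of Iglc1, 46.4% of Iglc2 and 46.3% of Iglc3. In WT they held 37.8% of Igkc, 29.9% of Ighm, 52.1% of Ighd, 6.25% of Iglc1 (1 of 16), 27.3% of Iglc2 and 14.3% of Iglc3 (2 of 14) UMIs, and of all members 189 UMIs lay within the class and 379 outside.

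In KO, Igkc was 7.84 times higher in B cell-like cells than outside, Ighm 5.77 times, Ighd 8.33 times, Iglc1 3.82 times, Iglc2 6.26 times and Iglc3 6.23 times. All 6 members tested were at least 1 higher on the log2 scale, against 6.51% of 10666 genes, with a median of 2.56 against -0.12 for all genes. In WT, 4 of 4 members with at least 20 UMIs (Igkc, Ighm, Ighd and Iglc2) were at least 1 higher, against 17.6% of 5561 genes. Their folds were 21.2, 14.9, 37.8 and 13.1. Without the single WT cell rich in immunoglobulin, the B cell-like levels behind the first pair were 2081 and 2538 CPM, beside 172 and 266 CPM outside. Iglc1, Iglc3 and Jchain were below that minimum in WT, as was Jchain in KO.

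Outside the B cell-like class, 4 of the 6 members tested were at least 1 higher in KO on the log2 scale (16.4% of all genes were). Of these 4, Iglc3 met the minimum count through KO alone, with 12 WT UMIs. Iglc1 and Iglc2 were not at least 1 higher, and Jchain was too low to be compared. Igkc stood at 495, 528, 622, 585 and 532 CPM in the KO sets and at 140, 66.3, 162, 245 and 125 CPM in the WT sets. No WT set reached a KO set. The log2 ratio was 1.66 for Igkc (1.42 to 1.97), 1.05 for Ighm (0.84 to 1.29; 556 CPM in KO and 266 CPM in WT) and 2.83 for Ighd (2.41 to 3.67; 265 CPM and 33.0 CPM). The Ighm sets ran from 497 to 625 CPM in KO and 180 to 351 CPM in WT, and the Ighd sets from 240 to 323 CPM and 0 to 51.1 CPM.

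Among the lambda genes, the log2 ratio outside the class was 0.68 for Iglc1 (0.02 to 1.69), 0.89 for Iglc2 (0.36 to 1.66) and 1.73 for Iglc3 (1.16 to 2.97). With Iglc2 and Iglc3 summed it was 1.32 (0.91 to 1.94). Of the 6 members tested, 4 (Igkc, Ighm, Ighd and Iglc3) were at least 1 higher in KO, against 16.4% of 10729 genes, and 0 were at least 1 lower, against 2.54%. Iglc3 (190 UMIs in KO, 12 in WT) and Iglc1 (104 and 15) met the minimum count through KO alone. The call of Iglc3 therefore adds no support to the count. Igkc (120 WT UMIs), Ighm (185) and Ighd (23) reached the minimum in WT as well. The call of Ighm was lost with TMM factors or DESeq2 size factors (both 0.89), named classes alone as the outside (0.83), no integration (0.72), marker UMIs alone (0.98), at least 200 genes per cell (0.61), a naming threshold of 0.5 (0.97), and without mixed cells (0.97), set WT3_p2 (0.97) or set WT4_p3 (0.95), and it fell just below 1 without set KO6_p1. Without set WT4_p2 the ratios were 1.78 for Iglc1, 1.29 for Iglc2 and 3.44 for Ighd, and WT had 0 UMIs of Iglc3. Leaving out other sets gave values down to 0.49 for Iglc1, 0.68 for Iglc2 and 1.48 for Iglc3. The medians were 1.36 for members and 0.23 for all genes. Sets did not overlap for 5 of the 6, all but Iglc1, against 13.0% of all genes.

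Of 3 other B cell transcripts, Cd79a and Cd79b were at least 1 higher in KO outside the class and Ms4a1 was not. Cd79b stood at 247 CPM in KO and 89.1 CPM in WT (log2 ratio 1.42), Cd79a at 46.0 and 5.75 CPM (2.25), and Ms4a1, which encodes CD20, at 137 and 69.0 CPM (0.94), with overlapping sets. In named classes alone Ms4a1 stood at 0.35 (-0.14 to 0.92), and in T cell-like cells at -1.79 with Cd79b at -0.11, on 5 and 4 WT UMIs. All 10 genes of the B cell marker list were detected outside the class in both genotypes, with summed levels of 1117 CPM in KO (sets 961 to 1297) and 345 CPM in WT (sets 235 to 425). The B cell-like share was likewise higher in every KO set than in every WT set. The part of the larger B cell-like share, or of B cell transcripts in other clusters, in the higher immunoglobulin counts of the KO was not tested.

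By class, Igkc in KO ran from 178 CPM in mural-like cells (71.4 to 366) and 316 CPM in stromal-like cells (276 to 360) through 374 CPM in monocyte-like, 376 CPM in T cell-like, 392.05 CPM in mitotic-like, 459 CPM in endothelial-like and 482 CPM in epithelial-like cells to 542 CPM in dendritic cell-like and 575 CPM in macrophage-like cells (487 to 675). Neighbours in this order overlapped in their intervals, whereas the stromal-like and macrophage-like values did not. The unnamed clusters held 943 CPM (877 to 1013) at a median of 207 UMIs per cell, and within them the weakly marked cluster of set KO6_p1 held 1114 CPM. A cluster of 47 KO cells, too small to be named, held 1447 CPM on 15 UMIs (810 to 2386). All these values lay below the 4369 CPM of B cell-like cells. None of the 3 stromal-like clusters had a gene of the stromal list among its leading genes, and 1 had a plasma cell marker, Sdc1. The stromal-like clusters were therefore compared between genotypes separately. Igkc stood at 319, 292 and 365 CPM in KO and at 77.6, 59.7 and 60.1 CPM in WT in clusters 4, 6 and 11, with log2 ratios of 1.97 (1.15 to 3.09), 2.20 (1.10 to 3.78) and 2.51 (0.95 to 4.94). These rested on 11, 6 and 3 WT UMIs, and the KO and WT sets overlapped in cluster 11.

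**Figure D3:**
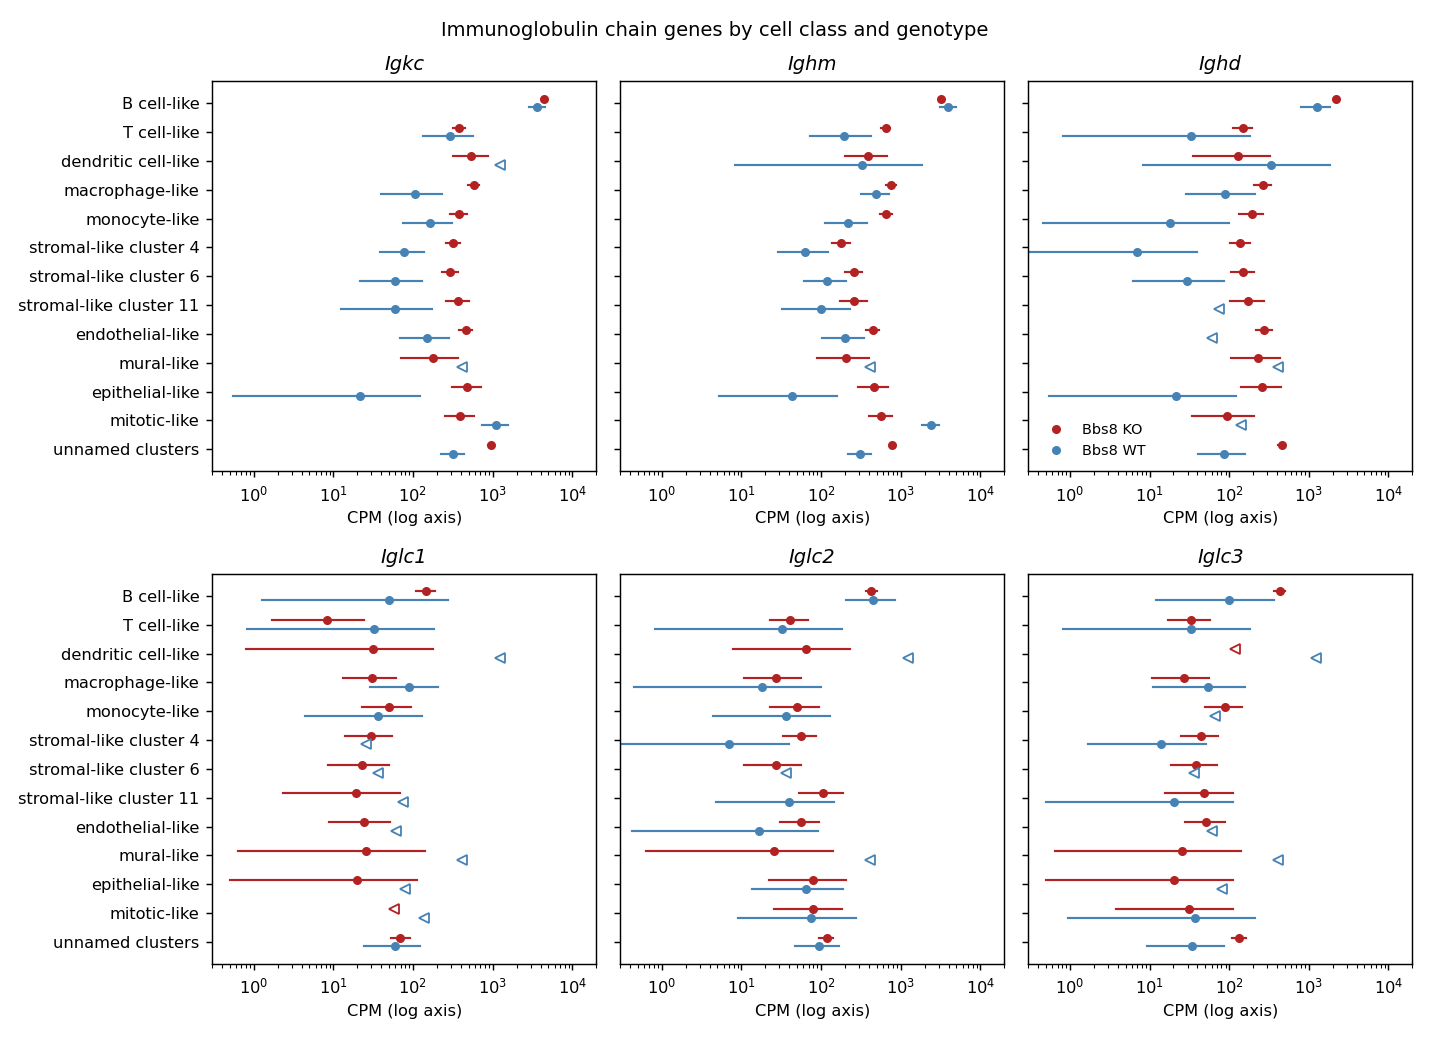
Level in CPM (log axis) of the members in each class of KO and WT cells, with exact Poisson 95% intervals as bars, the 3 stromal-like clusters drawn separately, and open triangles at the upper limit of the interval where there was no UMI. B cell-like cells are highest for Igkc in both genotypes, at 4369 CPM in KO and 3651 CPM in WT, and KO exceeds WT for Igkc in stromal-like clusters.

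Mitotic-like cells, marked by genes of dividing cells such as Mki67 and Top2a, were few. Ighm stood at 565 CPM in 123 KO cells and 2374 CPM in 44 WT cells (log2 ratio -2.06, -2.71 to -1.46), and Igkc at 392.05 and 1093 CPM (-1.47, -2.31 to -0.66). A single WT cell of 1776 UMIs gave 28 of the 63 Ighm UMIs and 8 of the 29 Igkc UMIs, along with 3 UMIs of Ighg3, a switched heavy chain gene, and 6 of Cd79b. Without that cell Ighm was 1413 CPM and Igkc 848 CPM in WT. The Igkc sets overlapped, at 135 to 935 CPM in KO and 685 to 1787 CPM in WT. Ms4a1 stood at 110 CPM in KO and 490 CPM in WT and Cd79b at 157 and 452 CPM (242 CPM in WT without that cell, which held 2 of the 13 Ms4a1 UMIs), and their part in the immunoglobulin values was not tested. Ighd had 0 UMIs in WT mitotic-like cells and 6 in KO.

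Ratios between members were also taken by class. Per Igkc UMI, KO B cell-like cells had 0.735 Ighm UMIs (0.682 to 0.792, sets 0.626 to 0.839) and stromal-like cells 0.695 (0.563 to 0.857, sets 0.534 to 0.848). Endothelial-like cells stood at 0.974 (0.744 to 1.27) and the unnamed clusters at 0.835 (0.750 to 0.929). These 4 intervals overlapped.

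In KO, T cell-like, monocyte-like and macrophage-like cells had more Ighm per Igkc than B cell-like cells. The ratio was 1.72 in T cell-like cells (1.39 to 2.14, sets 1.43 to 2.13), 1.75 in monocyte-like cells (1.29 to 2.39, sets 1.43 to 2.45) and 1.32 in macrophage-like cells (1.06 to 1.64, sets 1.05 to 2.14). Each of the 5 KO sets lay above all B cell-like sets in these 3 classes. The same held for mitotic-like cells, with KO sets at 0.889 to 3 on 36 Ighm and 25 Igkc UMIs in all. In WT the ratio was 0.667 in T cell-like cells on 6 and 9 UMIs (0.195 to 2.10), 1.33 in monocyte-like cells (0.516 to 3.58) and 4.5 in macrophage-like cells (1.82 to 13.3), beside 1.08 in B cell-like cells (0.777 to 1.51), so the T cell-like value lay on the other side. In KO, Ighd per Ighm UMI was 0.686 in B cell-like cells (0.628 to 0.750) and 0.671 in stromal-like cells (0.518 to 0.866), but 0.229 in T cell-like cells (0.167 to 0.309), 0.294 in monocyte-like cells (0.196 to 0.432) and 0.348 in macrophage-like cells (0.261 to 0.461). Without cells that held UMIs of another lineage the T cell-like ratio of Ighm to Igkc was 2.35 (1.78 to 3.13).

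**Figure D4:**
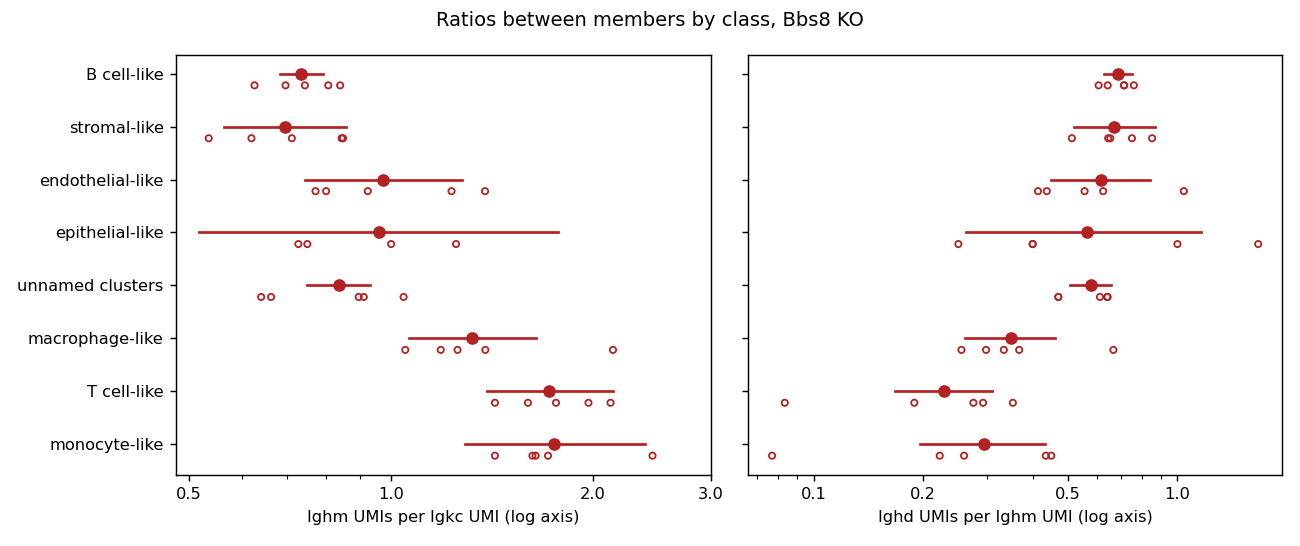
Ratio of Ighm to Igkc UMIs and of Ighd to Ighm UMIs by class in KO cells, with exact conditional 95% intervals as bars and open points for single barcode sets (log axes). Of the epithelial-like sets, KO6_p1 had no Igkc UMI and so no ratio to it. Stromal-like cells lie at 0.695 beside the 0.735 of B cell-like cells for Ighm over Igkc, and T cell-like cells lie at 1.72.

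In KO T cell-like cells 176 of 972 had Ighm (18.1%, 11.98% after thinning) and 78 had Igkc. Igkc was found in 19.3% of T cell-like cells with Ighm (13.8% to 25.9%, median depth 400 UMIs) and in 5.53% of those without (4.05% to 7.35%, 268.5 UMIs). UMIs of the B cell marker list were found in 6.96% of T cell-like cells with no immunoglobulin UMI, 17.1% with 1, 36.8% with 2 and 72.1% with 3 or more, at median depths of 269, 295, 439.5 and 444 UMIs. The share of cells with B cell markers rose with the immunoglobulin load, as did the depth beyond 1 UMI, and the part of either in the other was not tested. The summed B cell marker list was at 691 CPM in KO T cell-like cells (10 of 10 genes detected, sets 342 to 842 CPM).

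Light chain use was compared per cell. Of KO B cell-like cells, 43.7% had kappa UMIs alone (455 cells), 8.36% lambda alone (87), 19.0% both (198) and 28.9% neither (301). In WT the counts were 21, 6, 4 and 40 of 71 cells. Lambda UMIs made up 18.6% of all light chain UMIs in KO (16.9% to 20.4%) and 14.1% in WT (7.51% to 23.4%), intervals that overlapped. The WT share was 4.0% without set WT4_p2 and 25% without set WT3_p2, on either side of the KO share. Outside the B cell-like class the lambda share was 23.8% in KO (22.01% to 25.8%) and 29.8% in WT (23.1% to 37.3%).

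Lambda genes were counted by the Igkc load of the cell. Iglc2 or Iglc3 was found in 18.6% of KO B cell-like cells with no Igkc UMI, 24.4% with 1 to 2 and 34.3% with 3 or more, at median depths of 237, 271 and 477 UMIs, and the level ran from 776 to 865 and 909 CPM. Iglc1 was found in 4.12%, 4.11% and 3.77% of the same cells, and its level ran from 237 to 144 and 67.0 CPM. With every cell thinned to 200 UMIs, Iglc2 or Iglc3 was found in 14.1% of cells without Igkc (10.8% to 18.1%) and 17.9% of cells with it (14.4% to 21.9%), so at equal depth the intervals overlapped. Iglc1 was then found in 2.67% (1.29% to 4.85%) and 2.07%, the latter within the interval of the former. Over all KO cells, 5 had 3 or more Iglc1 UMIs, and 0 of these had Igkc (0% to 52.2%). Over all WT cells, 2 had 3 or more Iglc1 UMIs, and both had 1 Igkc UMI. Iglc2 and Iglc3 were each found in 139 KO B cell-like cells, and 23 cells had both.

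**Figure D5:**
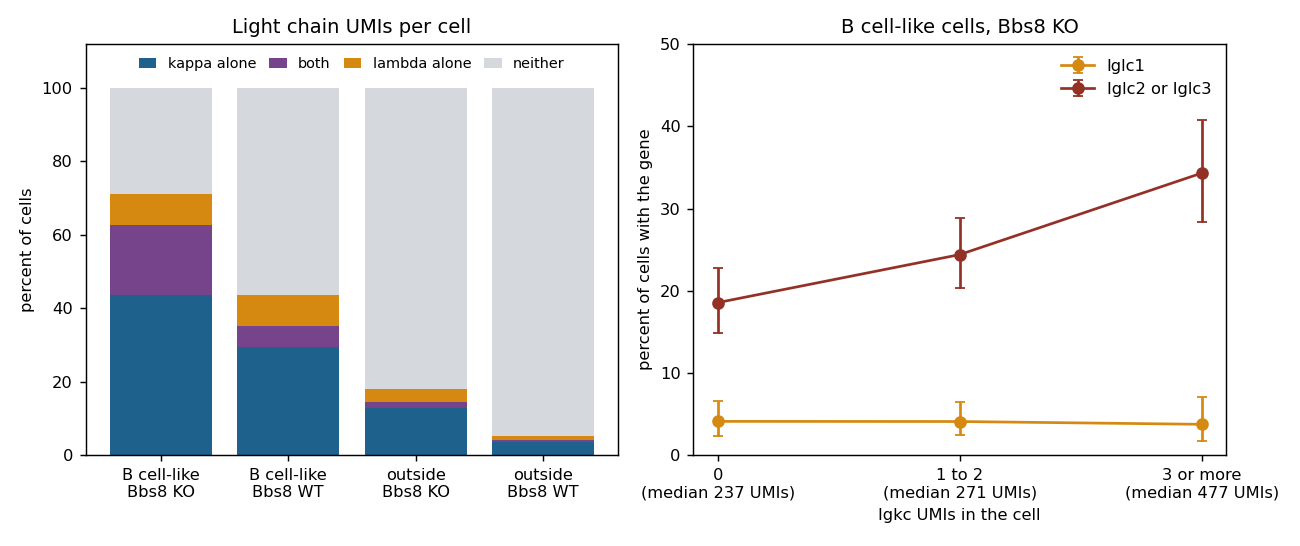
Stacked percent of cells with kappa alone, both, lambda alone or neither in B cell-like cells and outside them (left), and percent of KO B cell-like cells with a lambda gene by the number of Igkc UMIs in the cell, with exact binomial 95% intervals (right). In KO 43.7% of cells had kappa alone and 8.36% lambda alone, and Iglc2 or Iglc3 runs from 18.6% to 34.3% with rising Igkc while Iglc1 lies between 3.77% and 4.12%.

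Jchain had 3 UMIs in the whole table, in 3 KO cells of set KO5_p3. Of these, 2 lay in an unnamed cluster and 1 was T cell-like. Each had 1 Ighm UMI, 0 Igkc UMIs and 0 UMIs of the B cell marker list. In WT it had 0 UMIs, which allows up to 4.19 CPM.

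Beside the members, 19 other immunoglobulin rows were listed. Of 15 variable gene rows, 13 had a UMI, with 76 UMIs in KO and 0 in WT. Of 4 other constant gene rows, 2 had a UMI, with 9 in KO and 13 in WT. The 5 with most UMIs were Ighg2b (9 in KO and 7 in WT, 0 in B cell-like cells), Igkv3-4 (14), Igkv6-15 (11), Iglv1 (11) and Ighv1-64 (7). The 7 WT UMIs of Ighg2b, an IgG heavy chain, came from a single cell. Of the 14 Igkv3-4 UMIs, 11 lay in B cell-like cells.

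Other genes of the B cell programme were counted by list in B cell-like cells, KO against WT and, in KO, against all other cells. Of the antigen receptor signalling list, 17 of 21 genes were at least 1 higher in KO B cell-like cells than outside on the log2 scale (median 2.20; 6.51% of all genes were) and 1 was lower, among them Cd79b (3.00), the phosphatase Ptpn6 (2.17) and the inhibitory coreceptor Cd22 (3.29). Between genotypes 3 of 19 were at least 1 higher in KO, where 31.4% of all genes were, and 1 was at least 1 lower, where 10.9% were, with Cd79b at 0.80 (0.21 to 1.47). Of the naive follicular B cell list, 9 of 12 were higher in B cell-like cells and 1 lower (median 1.95). Bank1, an adaptor of B cell signalling, stood at 3.14, the IgM receptor Fcmr at 3.07 and the low-affinity IgE receptor Fcer2a at 2.93.

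Of the naive list, 8 of 12 genes were at least 1 higher in KO and 0 lower (median 1.59, beside 0.28 for all genes). The minimum of 20 UMIs could be met through KO alone, so the count supports no difference of the list. Of its genes with most UMIs, Fcer2a was at 1.56 (0.21 to 3.47) on 4 WT UMIs, Bank1 at 0.69 (-0.07 to 1.58) and Fcmr at 0.37 (-0.53 to 1.45). Of all genes with any UMI, 20.3% were at least 1 lower in KO B cell-like cells than outside. That share had no minimum count, whereas the list counts of lower genes here and below needed 20 UMIs per gene. It is therefore not a like-for-like background for them. Of the B1 and marginal zone list, 1 of 9 genes was higher in KO B cell-like cells, the complement receptor gene Cr2 (3.09), and 6 were lower, among them Zbtb20 (-1.98) and Spn (-1.54), with Plac8 at -0.36, and none of 3 passed a log2 ratio of 1 between genotypes. Of the germinal centre list, 0 of 4 tested genes were higher and 2 lower, with Mki67 at -3.27, Fas at -0.93 and Bcl6 at -0.17. The genes with most UMIs in KO B cell-like cells were Mki67 (6), Bcl6 (3), Fas (3) and Gcsam (1), and these are not the same 4 as those tested. No gene of the list could be compared between genotypes.

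Of the plasma cell list, 2 of 8 were higher and 4 lower, and 3 had enough UMIs to be compared between genotypes. Of these 3, 1 was at least 1 higher in KO (31.4% of all genes were) and 2 at least 1 lower (10.9% were). They had at most 6 WT UMIs each, so the counts support no difference. Its gene with most UMIs in WT, Mzb1, stood at 131 CPM in KO and 300 CPM in WT on 6 UMIs, and Xbp1 at 49.7 and 200 CPM on 4 UMIs, of which the WT cell rich in immunoglobulin gave 1 and 2. Herpud1, of the endoplasmic reticulum stress response, had 55 UMIs in KO and 0 in WT, and Creld2 had 16 and 2. Of the B cell precursor list, 1 of 5 genes was listed and had 0 UMIs in B cell-like cells. Of the switched heavy chain list, 4 of 7 were listed, with 0 UMIs in B cell-like cells. Of the immunoglobulin receptors and transport list, 1 of 7 was higher in B cell-like cells, Fcmr, and 4 were lower, among them the neonatal Fc receptor gene Fcgrt (-2.21) and the Fc receptor signalling chain Fcer1g (-3.19), with the inhibitory receptor Fcgr2b at -0.76, and 0 of 3 were higher and 1 lower between genotypes.

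The genes most like Igkc were taken over 20 sums of class and genotype, by Pearson's r of log2(CPM + 5) among 3654 genes. They were H2-Ob (0.948), a regulator of antigen loading on MHC class II, Bank1 (0.946), Cd22 (0.937), Sorl1 (0.931), Zcchc11 (0.928), Cd79b (0.927), Grap (0.908) and Luc7l2 (0.898). Of the members, Iglc2 stood at 0.880, Ighm at 0.823, Iglc3 at 0.732, Iglc1 at 0.589, Ighd at 0.480 and Jchain at 0.067. The sums shared libraries and differed widely in depth, and r is a description of them.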

How the data were processed

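Cells of the iWAT SVF of 1 Bbs8 KO and 1 Bbs8 WT mouse were profiled with Seq-Well S3, and GEO's labels gave 10 samples, 5 per genotype. The authors deposited a table of UMI counts per gene and cell, not normalized, after demultiplexing with bcl2fastq, alignment with STAR to mm10 and filtering with Seurat. The submitters' processing notes name these tools. Cells of the table had 101 to 994 genes and up to 20% mitochondrial UMIs. Whether the counts were taken before or after a depth equalisation that the study describes was not given in the sources used here. Cells were mapped to a genotype by their barcode set, and 0 columns were left unmapped. The set codes match no single labelled sample, so each genotype was treated as 1 sample.

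Cells were integrated by set and clustered with Seurat 5.3.0 (R 4.3.3; 2000 variable features, 30 dimensions, k.filter 100, k.weight 50, resolution 0.8), leaving out 26 immunoglobulin rows. A cluster of at least 60 cells was named where the mean log2 fold of a marker list over other cells exceeded 1 and at least 3 markers had 3 or more UMIs and a log2 fold above 0.5, with 20 CPM added. Of 18 clusters, 17 were large enough and 14 were named. Doublets were kept and no caller was run. An alternative left out cells with UMIs of another lineage, which were 14.9% of KO and 16.9% of WT B cell-like cells.

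Levels are sums of UMIs per class and genotype with exact Poisson intervals, shares have Clopper-Pearson intervals, and ratios have exact conditional intervals, all at 95%. A count of 0 was given a limit of 3 UMIs. Log2 ratios had 5 CPM added (1 and 20 as alternatives), and genes needed 20 UMIs over both groups. A gene counted as higher or lower at a log2 ratio of 1. Shares were also taken after thinning cells to 200 UMIs (100 as an alternative). TMM factors of edgeR 4.0.16 and size factors of DESeq2 1.42.0 served as other scalings only. Genes like Igkc needed 200 UMIs in all. Intervals were tested on simulated data. Other steps used Python 3.11.15, numpy 2.4.6, scipy 1.17.1, pandas 2.3.3 and matplotlib 3.10.9. With 1 mouse per genotype no test was made.

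The members and the gene lists were chosen with earlier results of these data known. Named were the 7 members, the 5 other immunoglobulin rows with most UMIs, up to 4 genes per list with most UMIs in B cell-like cells, and the 8 genes most like Igkc. Cd79a, Cd79b and Ms4a1 were also named beside the members as B cell transcripts. Some genes that this rule names are not reported here.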

Additional observations from a re-analysis of the deposited data

Results flagged for a closer look

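Values of single barcode sets were compared within each genotype for 32 measures of 5 sets, and 8 stood apart by Dixon's gap ratio (critical value 0.71), where chance gives about 1 in 20. The sets were treated as technical parts of 1 mouse, and whether their codes also mark animals is not given in the sources used here. In WT B cell-like cells, Igkc of set WT3_p2 stood at 11683 CPM, with the other sets at 0 to 2516 CPM, and 32 of its Igkc UMIs came from a single cell. Set WT4_p2 stood apart for Iglc1 (101 CPM) and Iglc3 (201.3 CPM) in B cell-like cells and for Iglc3 outside them (40.8 CPM), with the other WT sets at 0 in each. These were 1, 2 and 12 UMIs, and with a single set above 0 the gap ratio is 1 by construction, so they say nothing of a difference between sets. Set KO6_p1 stood apart outside B cell-like cells for Ighd at 323 CPM (others 240 to 257 CPM) and for Iglc2 at 87.5 CPM (others 59.7 to 65.9 CPM), and for its B cell-like share of 6.98% (others 12.4% to 13.5%). This set held 851 of the 863 cells of the weakly marked cluster (Igkc 1108 CPM), which was counted outside the B cell-like class. In KO B cell-like cells the lambda share of light chain UMIs was 24.3% in set KO5_p2 and 16.5% to 18.4% in the others. The causes were not tested.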

How the results depend on the processing

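No paired analysis was possible because each genotype was 1 mouse and the barcode sets carry no number that matches a labelled replicate. Every WT value in B cell-like cells rested on 71 cells, and depth limits shares of cells with a UMI, which fell with thinning. Naming threshold 0.5, leaving out the cell with most immunoglobulin and using named classes alone as the outside were alternatives chosen after seeing the data. Without a minimum count, 52.0% of genes were at least 1 higher in KO in B cell-like cells, against 31.4% with it. The cause of each change was not tested.

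Log2 ratios of KO to WT for the 7 members in B cell-like cells (0.19 as reported) were 0.43 with no integration, 0.84 with classes from marker UMIs alone, 0.66 with at least 200 genes per cell, -0.059 with naming threshold 0.5, 0.73 without the cell with most immunoglobulin, 0.73 with TMM factors and 0.69 with DESeq2 size factors. Outside the class (1.504) they were 1.12 with no integration, 1.15 with at least 200 genes per cell, 1.28 with named classes alone and 1.34 with TMM factors and with DESeq2 size factors. TMM and DESeq2 scaling moved every ratio outside the class by -0.16 and -0.17. Single members reversed in B cell-like cells as follows. Ighm turned to 0.88 with marker UMIs alone, 0.19 with at least 200 genes, 0.34 without the cell with most immunoglobulin, 0.24 with TMM, 0.20 with DESeq2 and 0.20 without set WT3_p2. Iglc2 turned to 0.37 with immunoglobulin rows kept in the clustering, 0.26 with at least 200 genes, 0.46 with TMM, 0.42 with DESeq2 and 1.08 without set WT4_p2. Igkc turned to -0.017 with naming threshold 0.5 and -0.13 without set WT4_p2, and Iglc1 to -0.27 with at least 200 genes.

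The B cell-like share was 12.9% of KO and 5.29% of WT cells with immunoglobulin rows kept, 15.3% of KO with no integration, 9.74% and 1.66% with marker UMIs alone, 14.1% and 1.88% with at least 200 genes, and 21.1% of KO with naming threshold 0.5. Igkc in B cell-like cells was 4037 CPM in KO and 2443 CPM in WT with no integration, 3343 CPM in KO with naming threshold 0.5, and in WT 2607 CPM with marker UMIs alone, 2507 CPM with at least 200 genes and 2081 CPM without the cell with most immunoglobulin. Igkc was found in 57.4% of KO B cell-like cells with no integration, 75.3% with at least 200 genes and 42.5% with naming threshold 0.5 (42.1% after thinning). Thinned to 100 UMIs, it was found in 32.3% of KO and 18.3% of WT B cell-like cells and in 5.99% and 1.40% of other cells. In other KO cells it was found in 13.5% with immunoglobulin rows kept, 13.4% with no integration (9.45% after thinning), 15.5% with marker UMIs alone (11.3%), 18.2% with at least 200 genes (8.88%) and 13.5% without mixed cells, and in 5.43% of other WT cells with at least 200 genes.

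Leaving out 1 barcode set at a time gave ranges of 11.2% to 12.9% (KO) and 3.10% to 3.87% (WT) for the B cell-like share, 4275 to 4475 CPM and 2140 to 4773 CPM for Igkc, 0.018 to 0.61 and 1.38 to 2.03 for the log2 ratio of the 7 members in and outside B cell-like cells, -0.13 to 1.03 for that of Igkc in them, -0.51 to 0.20 for Ighm, -0.32 to 1.08 for Iglc2, 39.96% to 41.6% and 14.3% to 33.8% for the Ighd share, and 17.4% to 19.1% and 4.0% to 25% for the lambda share. Without set WT3_p2 the lambda share in WT was the 25%, and without WT4_p2 the 4.0%. Igkc was found in 61.2% to 63.8% and 33.3% to 37.3% of B cell-like cells (53.4% to 54.2% and 28.2% to 34.6% thinned) and in 14.1% to 15.0% and 2.58% to 4.62% of other cells (10.1% to 10.6% and 1.65% to 3.21% thinned).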
